A study of Arabidopsis thaliana with 6 samples.

Results

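In RIP-seq of AtGRP7-GFP from Arabidopsis thaliana, 104 of the 33331 listed genes formed a group of moderately abundant transcripts that were higher at LL36, the subjective evening, than at LL24, the subjective morning. AtGRP7 is a glycine-rich RNA-binding protein of the circadian system, and RIP-seq sequences the RNA that is pulled down with it. The tested plants expressed AtGRP7::AtGRP7-GFP in the grp7-1 background at both time points, so bait and mutant background were shared by all libraries. The transgene was driven by the AtGRP7 promoter and also held the gene's untranslated regions and intron, and several plants were pooled per sample. Aerial tissue was taken from plants raised for 16 days under days of 12 h light and nights of 12 h and then kept in continuous light (LL) for 36 h or for 24 h, with 3 libraries per time point. The LL36 plants had thus also spent longer in continuous light, so time of day and length of continuous light cannot be told apart. Tissue was fixed with 1% formaldehyde for 15 min, AtGRP7-GFP was bound to GFP-Trap beads, and the libraries were made without poly(A) selection. No input RNA, total RNA or wild-type RIP was analysed here, so a higher value can stand for more transcript in the plant, more transcript bound, or both, and these cannot be told apart. In bulk tissue of this kind, fewer cells of a type and less RNA per cell cannot be told apart either.

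The members were selected on the readout itself. Values were the deposited TPM (a length-corrected abundance), and scaled TPM is that value after the median of each library over genes of mean TPM 5 or more was set equal. A member had a mean deposited TPM of 1 or more and below 5, a ratio of mean scaled TPM at LL36 over LL24 of 2 or more, and no LL24 library as high as the lowest LL36 library. Because these criteria used the contrast between the time points, the members' levels, ratios and separation are given as a description, with no test. Of the 2018 genes in the abundance range, 5.15% met the rule, and 9.51% (192 genes) met its mirror image with lower values at LL36. Lack of overlap alone was met by 21.2% of the 2018 genes in the higher direction. Among 789 genes of mean TPM 5 or more, 4.82% (38 genes) met the same ratio and overlap criteria.

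The circadian clock of Arabidopsis is a loop of transcription factors in which the morning proteins CCA1 and LHY repress evening genes such as TOC1, and the evening proteins repress the morning genes in turn. CCA1 and LHY bind the evening element, a short promoter sequence known from evening-phased genes. AtGRP7 itself is an output of this clock whose transcript peaks in the evening, and it is known to act on RNA after transcription, in splicing and in other steps.

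The libraries differed in ways that touch the members. AtGRP7 RNA, which includes the transgene's, reached 207, 261 and 230 scaled TPM in LL36 libraries, against 2.90, 2.79 and 3.52 in LL24 libraries, so the RNA of the bait moved with the members and its part in their values cannot be told apart. Its paralogue AtGRP8 had 14.2, 12.6 and 14.2 scaled TPM at LL36 and 2.02, 2.41 and 2.85 at LL24. Leaf markers were abundant in every library (CAB1 1590 to 2048, RBCS1A 1083 to 1951 and RCA 38.8 to 145 scaled TPM), whereas of the root-enriched markers NRT2.1 was listed at 0 throughout and PYK10 lay between 0.984 and 1.85. LL36 replicate 3 stood apart in overall level: its median over genes of mean TPM 5 or more was 6.51 deposited TPM, against 9.80 to 13.5 in the other 5 libraries. The scaling set this gap aside. Judged on unscaled TPM, 41 of the 104 members overlapped between time points, and in 39 of the 41 the lowest LL36 value was that of replicate 3. The remaining 63 members were separated on either scale, with a median ratio of 4.09, against 2.34 for the 41.

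Sequence around the gene start was independent of the rule. Printed here are the evening elements (AAAATATCT) of the 6 members of highest ratio in which the element lay before the annotated start, since this motif differed most between members and other genes. Each is a stretch of 30 bases from TAIR10.1 (the RefSeq build), written 5′ to 3′ on the strand of the gene, with the element in capitals in either orientation.
MEE14 (minus strand, chr2:6922208-6922237): taccaatctaAGATATTTTacaatcttatc
AT4G16146 (minus strand, chr4:9144674-9144703): ataaattaagAAAATATCTaaaaagcttac
AT4G30660 (plus strand, chr4:14955194-14955223): gtcagagactAAAATATCTaaaagtgatct
AT3G17020 (minus strand, chr3:5804295-5804324): gcctccgtgaAGATATTTTccacccactgt
XBAT31 (plus strand, chr2:12378106-12378135): ataaaaatagAAAATATCTgacaagactgc
WLIM1 (minus strand, chr1:3348239-3348268): aaatataagcAAAATATCTaggagacagat
The element began 66 bases before the start of MEE14, 110 before AT4G16146, 169 before AT4G30660, 32 before AT3G17020, 156 before XBAT31 and 119 before WLIM1. The flanking bases are shown for context and were not aligned with each other.

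The evening element was searched on both strands from 250 bases before to 50 bases after the annotated start. It lay in the window of 17 of the 103 annotated members (16.5%), compared with 55 of the 1906 annotated other genes of mean TPM 1 to 5 (2.89%). Over all 32810 genes of the table that have such a window, 2.61% held it, and of the 191 annotated genes of the mirror image, lower at LL36, 3.14% did. The 38 more abundant genes that met the same ratio and overlap criteria held it in 11 of 37 annotated cases (29.7%). In the upstream part alone 10 members had the element (9.71%, against 2.26% of the other genes of that abundance), so in 7 members it lay within the first 50 transcribed bases as annotated, including AT4G33980, AT1G15125 and AT4G26670. Among the 12 members of highest ratio 5 held the element (AT4G33980, MEE14, AT4G16146, AT1G15125 and AT4G30660). The median ratio of the 17 was 2.60, against 2.96 for the 87 other members, so the element marked both steep and shallow members.

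Other short motifs differed less. The CCA1-binding site (AAAAATCT) was in 7.77% of member windows and in 7.76% of those of other genes of the same abundance. The I-box (GATAAG), a motif of light-regulated promoters, was in 26.2% of member windows, against 16.5% of the others and 15.0% of all genes. Site II elements (TGGGCC), common in genes for ribosomal and other growth-related proteins, were in 12.6% of member windows and in 23.7% of the others, but in 13.9% of all genes. The G-box (CACGTG) was in 10.7% of member windows, against 9.60% of the others. The cold-response motif DRE/CRT was in 5.83% of member windows both as GCCGAC and as ACCGAC, against 4.46% and 7.35% of the others. The HUD element (CACATG), the sugar-starvation box (TATCCA), the telo-box (AAACCCTA) and the W-box (TTGACC) differed by less than 3 percentage points between members and the others. A match says only that the letters are present in the window.

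**Figure D1:**
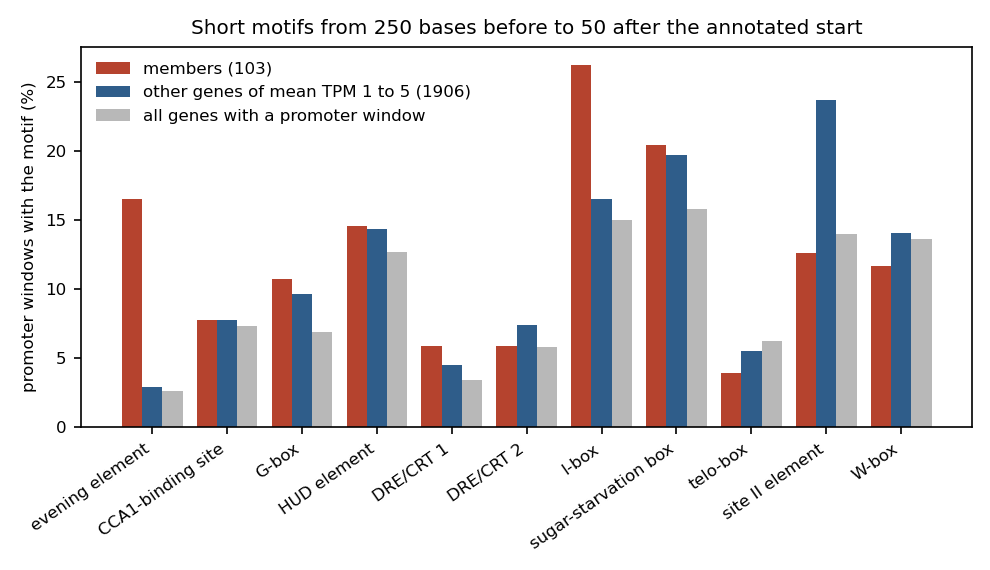
Share of promoter windows (y axis, %) that hold each of 11 motif spellings (x axis), for 103 members, 1906 other genes of mean TPM 1 to 5 and all genes with a window; DRE/CRT 1 and 2 are GCCGAC and ACCGAC. The evening element is in 16.5% of member windows and in 2.89% of those of the other genes, the widest relative gap drawn.

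Levels of the members spanned 1.43 to 9.11 scaled TPM at LL36 (means of 3 libraries) and 0 to 3.43 at LL24, with medians of 2.71 and 0.851. The median ratio was 2.88. A ratio of 10 or more was reached by 9 members and of 4 or more by 33. Both counts include the 2 members at 0 in all LL24 libraries, which have no finite ratio. In 35 members the ratio was below 2.5. In 52 members the lowest LL36 library was at least 2 times the highest LL24 library or LL24 was at 0 throughout, whereas in 4 the gap was under 1.2-fold. Together the members made up 0.216% to 0.286% of the listed TPM in LL36 libraries, against 0.0622% to 0.0901% in LL24 libraries. The median coefficient of variation over the members was 15.1% at LL36 and 18.6% at LL24. TPM holds no read depth and read totals were not used here, so no counting error is given and precision rests on the spread of 3 libraries.

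**Figure D2:**
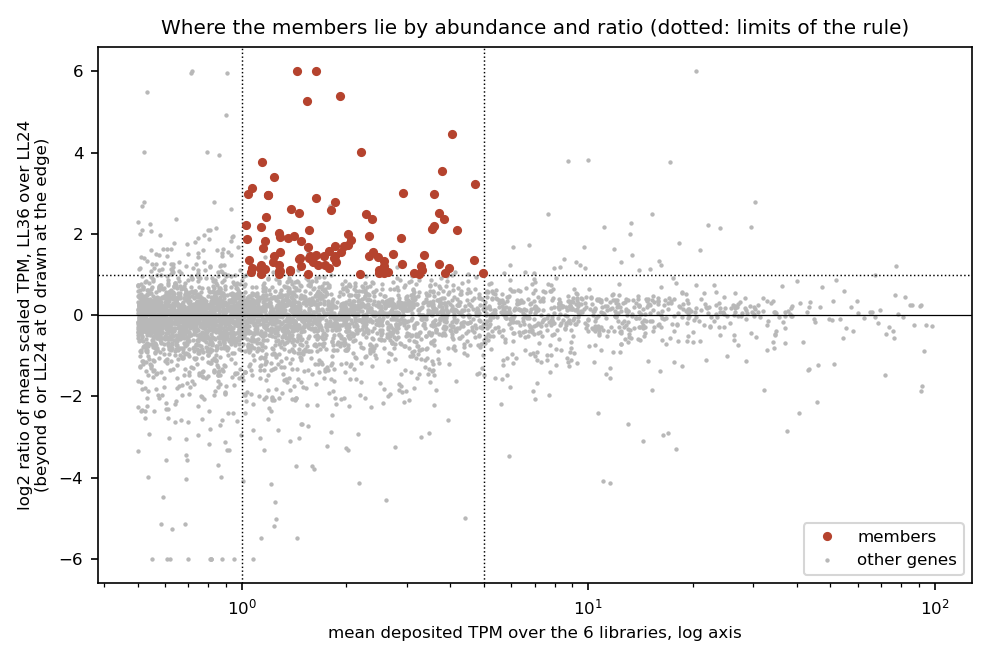
Mean deposited TPM over the 6 libraries (x axis, log scale) against the log2 ratio of mean scaled TPM, LL36 over LL24 (y axis), for genes of mean TPM 0.5 to 100; dotted lines are the limits of the rule. The 104 members fill the upper middle field, and most lie within 2 units above the ratio limit, with a few far above.

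Of the members 97 were protein-coding, 2 were miRNA precursors, 1 was a snoRNA, 1 was a long non-coding RNA and 2 were transcribed pseudogenes, and AT2G33430 was not in the annotation used. They lay on all 5 chromosomes (29, 20, 15, 17 and 22 on chromosomes 1 to 5). Transcripts of a single exon made up 31.1% of the annotated members (32 of 103), against 19.5% of the other genes of mean TPM 1 to 5, and the median number of exons was 2 against 3. The median transcript length was similar, at 1192 nt in members and 1230 nt in the others. Direct neighbours in the table's gene order were 4 pairs of members: COR47 with ERD10, PDF1.3 with PDF1.2b, AT5G01595 with FER1 and AT1G45165 with AT1G45170. How many such pairs other sets of this size hold was not computed.

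In 2 members every LL24 library was listed at 0. MIR396a, the precursor of a miRNA that targets growth-regulating factors, had 0.931, 2.43 and 10.03 scaled TPM in LL36 libraries, against 0, 0 and 0 in LL24 libraries. The LL36 value of replicate 3 was 4.12 times that of the next library, and since LL24 was listed at 0 in all 3 libraries no ratio is given. RTFL14, which encodes a small peptide of the ROTUNDIFOLIA-like family, had 1.86, 3.65 and 4.298 scaled TPM in LL36 libraries, against 0, 0 and 0 in LL24 libraries. Its transcript is 385 nt long, and the separation of its groups was set by the rule. MIR164b, the precursor of a miRNA against NAC transcription factors of organ boundaries, had 2.79, 1.22 and 2.87 scaled TPM in LL36 libraries, against 0, 0 and 0.892 in LL24 libraries. Its ratio was lower, at 7.705, and LL24 replicate 3 came near the lowest evening value. The 2 miRNA precursor models are 151 and 153 nt long, and the trimmed reads were longer than a mature miRNA, so these are values of the precursor models. For orientation, the mature 5p sequences are printed with the seed (bases 2 to 8) in capitals, and the 2 seeds differ.
miR396a-5p (minus strand, chr2:4142443-4142463): uUCCACAGcuuucuugaacug
miR164b-5p (plus strand, chr5:287586-287606): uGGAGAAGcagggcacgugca

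AT4G33980, annotated as an uncharacterized protein and included in a list of evening-phased clock genes, had 4.54, 3.53 and 4.14 scaled TPM in LL36 libraries, against 0, 0.274 and 0.0154 in LL24 libraries. Its ratio of 42.2 was the highest among members detected at LL24, with 1 LL24 library at 0. That ratio rests largely on LL24 replicate 2, since the log2 ratio was 5.401 with all libraries and 9.05 without this one. AT1G68650, of the UPF0016 membrane protein family, followed at 38.7, with 1.595, 3.13 and 6.14 scaled TPM in LL36 libraries, against 0.123, 0.0738 and 0.0838 in LL24 libraries. There, LL36 replicate 3 was 1.96 times the next library. MEE14, named after an embryo-arrest mutant, reached 7.998, 9.37 and 6.67 scaled TPM in LL36 libraries, against 0.335, 0.2897 and 0.4699 in LL24 libraries (ratio 21.96). It joined a high level in every evening library to a low one in every morning library. AT2G15120, a transcribed pseudogene, had 5.41, 1.73 and 7.46 scaled TPM in LL36 libraries, against 0.0481, 0.201 and 0.6596 in LL24 libraries and scattered widely at both time points, and 30.8% of its 100-nt stretches also occurred in other genes. AT4G16146, a cAMP-regulated phosphoprotein 19-related protein, had nearly equal values at LL36, with 2.33, 2.28 and 2.15 scaled TPM in LL36 libraries, against 0.149, 0.135 and 0.215 in LL24 libraries (ratio 13.5). AT1G15125, an S-adenosyl-L-methionine-dependent methyltransferase, had 2.14, 2.78 and 2.18 scaled TPM in LL36 libraries, against 0.217, 0.237 and 0.219 in LL24 libraries (ratio 10.5). In both of these the replicates of each time point lay close together, and separation from the other time point was set by the rule.

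**Figure D3:**
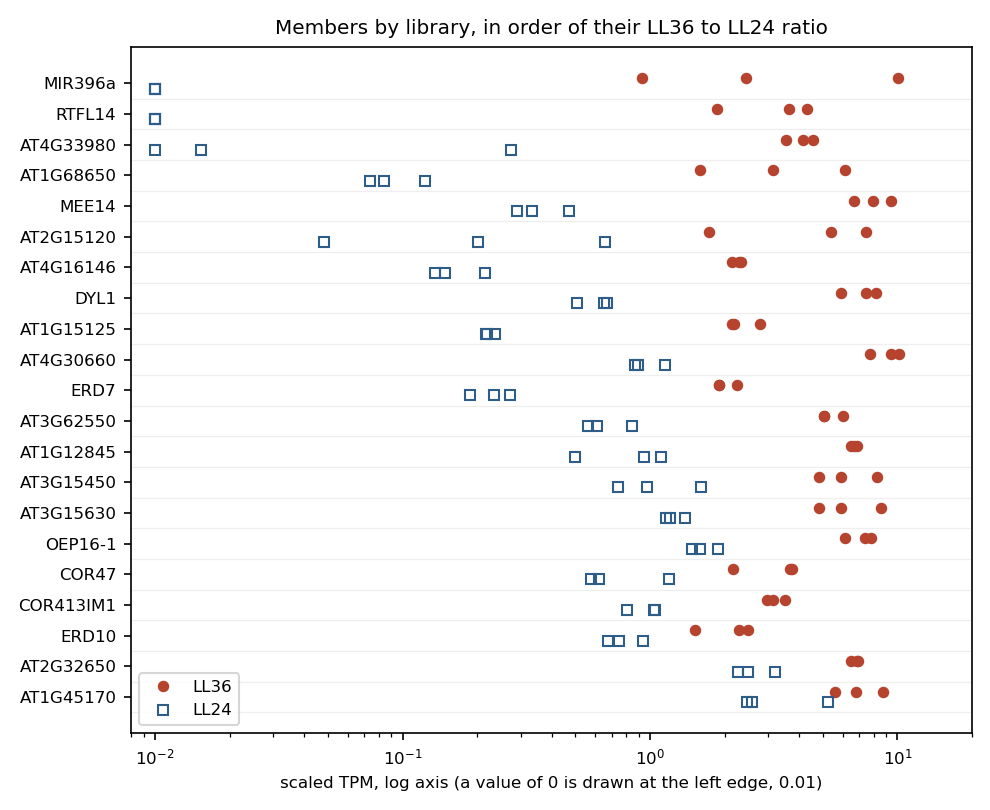
Scaled TPM (x axis, log scale) of 21 members named for their ratio, their LL36 level or a fixed gene list, in each of the 3 LL36 libraries (filled circles) and 3 LL24 libraries (open squares), with values of 0 drawn at 0.01. Every row is separated by construction, with the widest gaps at the top and the narrowest in AT1G45170 at the bottom.

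Genes of the cold, dehydration and salt response formed a group of 7 members with a median ratio of 3.999. AT4G30660, annotated as a low temperature and salt responsive protein, was the most abundant member in the evening and had 10.14, 7.74 and 9.44 scaled TPM in LL36 libraries, against 0.867, 1.15 and 0.892 in LL24 libraries (ratio 9.39). ERD7, an early-responsive to dehydration gene, had 2.25, 1.89 and 1.895 scaled TPM in LL36 libraries, against 0.234, 0.187 and 0.272 in LL24 libraries (ratio 8.72). COR47 and ERD10 are neighbouring dehydrin genes, whose hydrophilic proteins protect cells that lose water. COR47 had 3.73, 3.68 and 2.16 scaled TPM in LL36 libraries, against 0.624, 0.578 and 1.19 in LL24 libraries, and ERD10 had 2.497, 2.29 and 1.52 scaled TPM in LL36 libraries, against 0.749, 0.676 and 0.9405 in LL24 libraries. In both, LL36 replicate 3 was the lowest evening value and LL24 replicate 3 the highest morning value. COR413IM1, a cold-regulated protein of the chloroplast inner membrane, had 3.51, 2.98 and 3.15 scaled TPM in LL36 libraries, against 1.05, 1.04 and 0.808 in LL24 libraries (ratio 3.33). The cysteine protease RD19 (ratio 4.09) and LEA14, a late embryogenesis abundant protein (ratio 2.13), completed the group.

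Genes of the same pathway outside the rule were also compared between the time points. Their list was chosen with earlier results of these data known, so its counts are no independent test of the pathway. A limma fit over all 2807 genes of mean TPM 1 or more called 450 genes higher (16.0%) and 609 lower (21.7%) at LL36 at a Benjamini-Hochberg adjusted p of 0.05, so 42.5% of the calls were higher. This share was 18.5% on TPM as deposited, which moved the median log2 difference of all genes tested to -0.30, and 31.4% with each library divided by its listed sum. It was 47.4% with genes of mean TPM 5 or more alone. With scaling by the median over genes of mean TPM 1 or more it was 50%, so the excess of lower calls depended on the scaling. Of the 18 cold-regulated genes of a list chosen with earlier results known, 3 were members, and the 7 others that were abundant enough to be tested were all called higher, against 16.0% of all genes tested. Their median log2 difference, LL36 minus LL24, was 1.48, and that of all genes tested was 0.0032. KIN2, a small cold-induced protein, had 56.1, 52.8 and 59.4 scaled TPM in LL36 libraries, against 8.61, 7.52 and 8.29 in LL24 libraries (log2 difference 2.77 ± 0.09 SE, limma adjusted p = 2.54e-06). COR15B, which protects chloroplast membranes in the cold, had 18.4, 17.04 and 15.96 scaled TPM in LL36 libraries, against 1.33, 1.09 and 1.31 in LL24 libraries (log2 difference 3.68 ± 0.11 SE, limma adjusted p = 1.78e-06). RCI2A, a small membrane protein, had 24.1, 22.03 and 22.4 scaled TPM in LL36 libraries, against 5.26, 4.02 and 5.02 in LL24 libraries (limma adjusted p = 2.05e-05). The remaining 4 of the 7 were COR15A, COR413-PM1, ERD14 and KIN1, with ratios of 2.796, 2.06, 1.5003 and 1.58. On TPM as deposited, 4 of the 7 were called. The other 8 genes of the list lay below TPM 1 and were not tested. In 2 of these the LL36 libraries were all above the LL24 libraries and in 1, RD29B (ratio 0.269), all below, compared with 7.83% and 16.0% of the 19277 genes of mean TPM above 0 and below 1. Over genes of TPM 1 to 5 these shares were 21.2% and 28.1%. Among these 8 were the upstream regulators, with means of 0.156 scaled TPM at LL36 and 0.00818 at LL24 for CBF1, and 0.181 and 0.216 for CBF2.

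Dormancy and low-energy genes supplied 2 members of high evening level. DYL1 (DRM1), a dormancy-associated gene, had 7.46, 8.16 and 5.94 scaled TPM in LL36 libraries, against 0.669, 0.653 and 0.505 in LL24 libraries (ratio 11.8). AT3G15450, annotated as an aluminium-induced protein with YGL and LRDR motifs, had 5.92, 8.25 and 4.83 scaled TPM in LL36 libraries, against 0.971, 0.739 and 1.61 in LL24 libraries (ratio 5.72). Their separation was set by the rule, and the lowest evening library was 8.87 and 2.99 times the highest morning library. Of the list of 19 low-energy and dark-induced genes, 3 others were tested and 1 of them was called higher, against 16.0% of all genes tested. This was DRM2, the paralogue of DYL1, which had 43.6, 47.2 and 37.5 scaled TPM in LL36 libraries, against 0.3396, 0.5605 and 0.436 in LL24 libraries (log2 difference 6.31 ± 0.17 SE, limma adjusted p = 1.02e-06). KMD4 and AILP1 did not pass the test, at ratios of 1.09 and 1.25, although in AILP1 the LL36 libraries all lay above the LL24 libraries. The other 14 genes lay below TPM 1, and in 4 of these the LL36 libraries were all above the LL24 libraries and in 1 all below. The shares were the same 7.83% and 16.0% over all genes listed above 0 and below TPM 1, and 21.2% and 28.1% over genes of TPM 1 to 5.

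Clock genes were mostly too low to be members. Of the 11 evening-phased genes of the list only AT4G33980 was one, and the other 10 had mean TPM below 1 and were not tested, although in all 10 the LL36 libraries lay above the LL24 libraries, a pattern that 7.83% of all genes listed above 0 and below TPM 1 and 21.2% of genes of TPM 1 to 5 showed. ELF4, a component of the evening complex, averaged 1.71 ± 0.206 scaled TPM in LL36 libraries and 0.112 ± 0.0419 in LL24 libraries (SD, n = 3 each), TOC1 averaged 0.603 ± 0.0403 scaled TPM in LL36 libraries and 0.0786 ± 0.00752 in LL24 libraries, and COR27 averaged 1.87 ± 0.247 scaled TPM in LL36 libraries and 0.0301 ± 0.0221 in LL24 libraries. Of 15 morning-phased genes, none was a member and 14 lay below TPM 1, of which 12 had all LL36 libraries below the LL24 libraries and 1 had them above. The lower pattern was shown by 16.0% of genes below TPM 1 and 28.1% of genes of TPM 1 to 5. RVE4, a morning MYB-like factor and the only one tested, had 0.516, 0.527 and 0.462 scaled TPM in LL36 libraries, against 2.35, 2.13 and 1.88 in LL24 libraries (log2 difference -1.88 ± 0.14 SE, limma adjusted p = 7.90e-05). No starch breakdown gene of 16 was a member, and of the 2 tested BAM3 was called lower (ratio 0.618, limma adjusted p = 0.00655) and MEX1 was not called (ratio 1.15). The other 14 starch genes lay below TPM 1, where the LL36 libraries were all above the LL24 libraries in 9, such as PHS2 (ratio 6.07) and AMY3 (ratio 5.32), and all below in 2. Among 18 antenna and Rubisco small subunit genes, 11 were called lower and 1 higher, against 21.7% and 16.0% of all genes tested, and the list's median log2 difference was -0.49. The higher call, LHCA3 (ratio 1.24), was lost on TPM as deposited, with each library divided by its listed sum, with the median over genes of TPM 1 or more and with the replicate block. BAM3 overlaps the member AT4G17085 on the opposite strand, which had 3.21, 3.53 and 4.51 scaled TPM in LL36 libraries, against 1.74, 1.202 and 1.204 in LL24 libraries, so the directions of the pair were opposite.

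**Figure D4:**
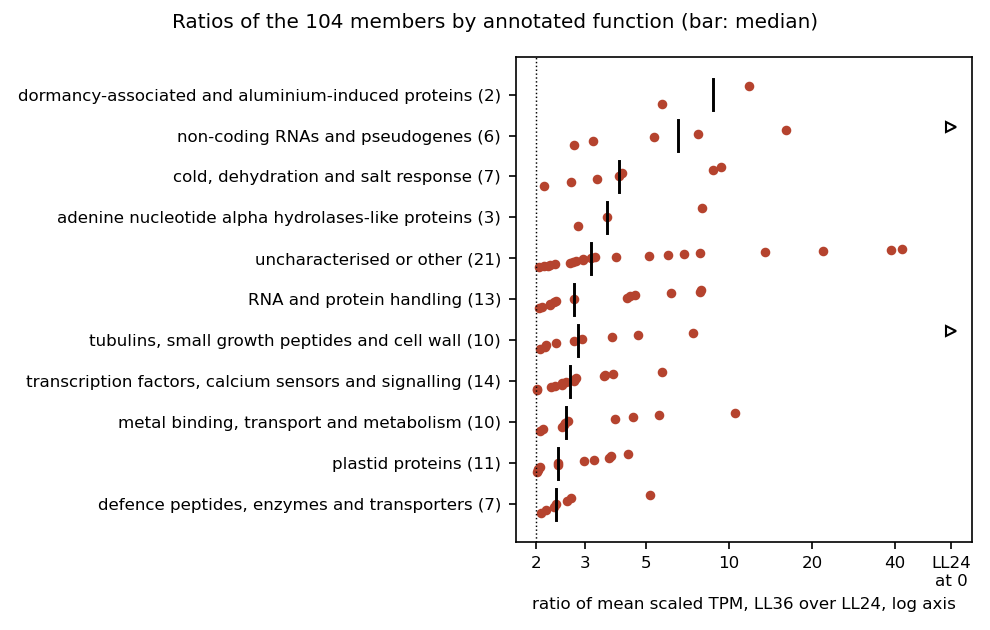
Ratio of mean scaled TPM, LL36 over LL24 (x axis, log scale), of each of the 104 members, grouped by annotated function with the number of members in brackets; bars are medians and open triangles mark the 2 members listed at 0 in all LL24 libraries. Groups overlap widely, and medians run between 2.35 for defence genes and 8.76 for the pair of dormancy-associated and aluminium-induced genes.

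A set of 3 members shared the adenine nucleotide alpha hydrolases-like fold of universal stress proteins. AT3G62550 had 5.06, 6.04 and 5.04 scaled TPM in LL36 libraries, against 0.6104, 0.5603 and 0.847 in LL24 libraries (ratio 7.998). AT3G53990 had 3.73, 3.23 and 2.88 scaled TPM in LL36 libraries, against 0.962, 0.784 and 0.991 in LL24 libraries, and AT3G17020 had 4.72, 3.26 and 4.56 scaled TPM in LL36 libraries, against 1.603, 1.304 and 1.51 in LL24 libraries. In all 3 the lowest evening library was more than 2-fold above the highest morning library. Of the TPR-like proteins AT4G32340 and AT3G26580 the ratios were 6.88 and 3.15.

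Transcription factors, calcium sensors and signalling genes gave 14 members with a median ratio of 2.65, the highest evening library being replicate 1 or replicate 2 in every case (7 each). Over all 104 members replicate 1 was the highest evening library in 37, replicate 2 in 45 and replicate 3 in 22. ERF6 and ERF104 encode ethylene response factors of rapid stress signalling. ERF6 had 3.04, 2.53 and 2.06 scaled TPM in LL36 libraries, against 1.005, 0.881 and 0.873 in LL24 libraries. ERF104 had 3.33, 2.704 and 2.86 scaled TPM in LL36 libraries, against 1.89, 1.55 and 0.983 in LL24 libraries. In both LL36 replicate 1 was the highest library, and the gap was narrower in ERF104, where LL24 replicate 1 was the highest morning value. BT2 and BT4, which carry BTB and TAZ domains, had ratios of 2.26 and 2.75. BT2 was the more abundant, at 5.78, 5.99 and 4.56 scaled TPM in LL36 libraries, against 2.21, 2.09 and 2.94 in LL24 libraries. STZ, a salt tolerance zinc finger repressor, had 4.66, 3.11 and 3.01 scaled TPM in LL36 libraries, against 1.83, 1.41 and 1.38 in LL24 libraries. It too was highest in LL36 replicate 1, whereas BT2 was highest in replicate 2. PAR1, a helix-loop-helix protein rapidly regulated by phytochrome, had 1.71, 3.26 and 1.92 scaled TPM in LL36 libraries, against 0.456, 0.543 and 0.944 in LL24 libraries. CAM1, a calmodulin, had 5.32, 5.54 and 3.798 scaled TPM in LL36 libraries, against 1.57, 1.496 and 2.19 in LL24 libraries, and SNRK2.2, a protein kinase of abscisic acid signalling, had 1.83, 2.01 and 1.69 scaled TPM in LL36 libraries, against 0.589, 0.464 and 0.517 in LL24 libraries. AT5G62900, the member of lowest ratio, averaged 1.53 ± 0.142 scaled TPM in LL36 libraries and 0.765 ± 0.149 in LL24 libraries (SD, n = 3 each).

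LL36 replicate 1 stood out in a set of members. In 9 members (8.65%) that library was at least 1.5 times the next LL36 library, as it was in 1.72% of other genes of mean TPM 1 to 5, although the rule itself can favour genes with 1 high evening library. AT2G22880, a VQ motif-containing protein, had 4.77, 1.596 and 0.895 scaled TPM in LL36 libraries, against 0.725, 0.265 and 0.279 in LL24 libraries, so its evening values spanned a 5.33-fold range. RTFL12, the second ROTUNDIFOLIA-like peptide, had 3.2003, 0.8401 and 1.04 scaled TPM in LL36 libraries, against 0.491, 0.218 and 0.377 in LL24 libraries, and the calmodulin-like CML38 had 3.29, 1.66 and 0.948 scaled TPM in LL36 libraries, against 0.522, 0.251 and 0.779 in LL24 libraries. The other 6 were DIC2, a mitochondrial dicarboxylate carrier, RDUF1, a RING finger ubiquitin ligase, NUDT21, a nudix hydrolase, the blue copper-binding protein BCB, the glycine-rich AT3G04640 and AT5G10695. The source of the high values in replicate 1 was not tested. AT2G22880 is uncertain on a second ground, since all of its 100-nt stretches are also in the overlapping gene EMB2001 on the opposite strand, which averaged 0.163 ± 0.0113 scaled TPM at LL36 and 0.141 ± 0.0750 at LL24.

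LL36 replicate 3 was the high library in 5 other members (4.81%, against 1.46% of the other genes of that abundance). Besides MIR396a and AT1G68650 these were 2 plant defensins, antifungal peptides of the jasmonate and ethylene response, and UBQ13. PDF1.2c had 2.01, 2.12 and 4.66 scaled TPM in LL36 libraries, against 1.13, 1.09 and 1.08 in LL24 libraries, and PDF1.3 had 1.21, 1.102 and 2.702 scaled TPM in LL36 libraries, against 0.393, 0.831 and 0.721 in LL24 libraries. Another defensin, PDF1.2b, lies beside PDF1.3 and did not share that pattern, with 2.79, 5.02 and 4.76 scaled TPM in LL36 libraries, against 0.808, 0.657 and 0.962 in LL24 libraries. No 100-nt stretch was shared between the 3 defensins or with other annotated genes, but shorter reads can still be shared between such close paralogues, so their split is uncertain. UBQ13, a polyubiquitin, had 1.36, 2.17 and 4.63 scaled TPM in LL36 libraries, against 1.24, 1.34 and 1.05 in LL24 libraries. LL36 replicate 2 was the high library by that margin in 2 members, PAR1 and the pseudogene AT4G06498 (1.92%, against 2.87% of the other genes of that abundance).

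**Figure D5:**
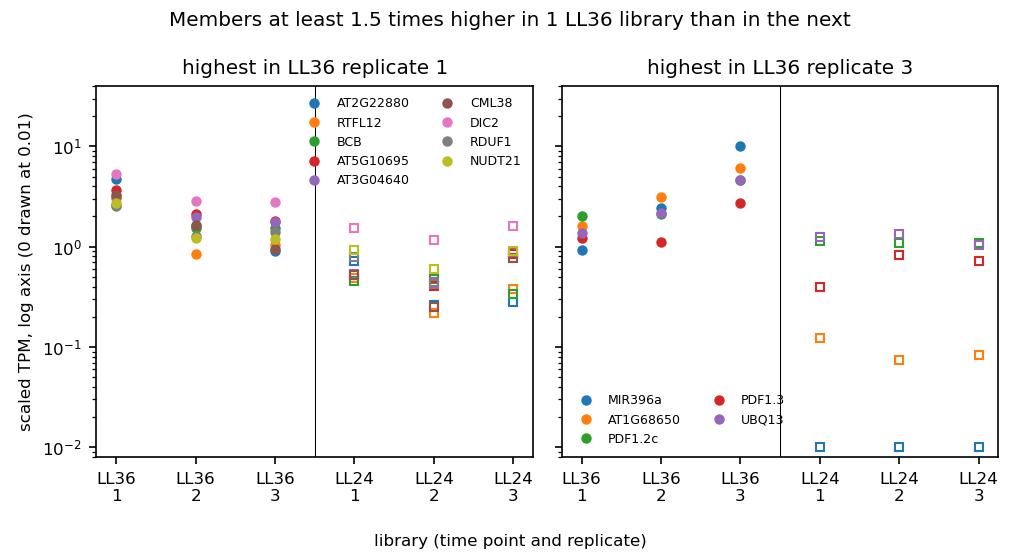
Scaled TPM (y axis, log scale, 0 drawn at 0.01) in each LL36 (filled) and LL24 (open) library for members that were at least 1.5 times higher in 1 LL36 library than in the next. On the left 9 members have their highest value in LL36 replicate 1, and on the right 5 have theirs in replicate 3.

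Plastid proteins made up 11 members, with a median ratio of 2.41. OEP16-1, a channel of the outer envelope, was the steepest, with 7.41, 6.16 and 7.79 scaled TPM in LL36 libraries, against 1.89, 1.48 and 1.59 in LL24 libraries (ratio 4.303). CHL, a lipocalin of the chloroplast, had 1.85, 1.52 and 1.64 scaled TPM in LL36 libraries, against 0.561, 0.422 and 0.384 in LL24 libraries. FTRA2, a subunit of ferredoxin/thioredoxin reductase, had 5.13, 4.93 and 6.04 scaled TPM in LL36 libraries, against 2.57, 1.84 and 2.29 in LL24 libraries, and THIC, an enzyme of thiamine synthesis, had 4.28, 4.29 and 3.75 scaled TPM in LL36 libraries, against 1.98, 1.72 and 1.43 in LL24 libraries. FTRA2 and THIC thus had similar morning levels, while CHL was low at both time points. PTAC6 and PTAC18, proteins found with the plastid transcription machinery, had ratios of 2.02 and 2.03, and PIFI, linked to chlororespiration, had 4.35, 4.402 and 4.37 scaled TPM in LL36 libraries, against 2.33, 2.05 and 2.08 in LL24 libraries. PIFI combined a low ratio of 2.03 with the tightest evening replicates of any member, at a coefficient of variation of 0.584%. AT1G45170, an outer envelope pore protein, was the member of highest mean TPM and had 5.58, 6.81 and 8.72 scaled TPM in LL36 libraries, against 2.58, 5.24 and 2.47 in LL24 libraries. Its LL24 replicate 2 came close to the lowest evening value. In AT1G45165, its neighbour, all 100-nt stretches also belong to the opposite-strand gene AT1G45163, which averaged 0.248 ± 0.0211 scaled TPM at LL36 and 0.236 ± 0.126 at LL24.

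Cell growth and wall genes included a tubulin of each kind. TUB5 (beta) had 4.46, 5.43 and 3.86 scaled TPM in LL36 libraries, against 1.26, 1.12 and 1.27 in LL24 libraries, and TUA5 (alpha) had 3.55, 4.03 and 3.21 scaled TPM in LL36 libraries, against 1.16, 1.16 and 1.38 in LL24 libraries. TUA5 shares 16.9% of its 100-nt stretches with TUA3, which averaged 4.104 ± 0.643 scaled TPM at LL36 and 2.27 ± 0.227 at LL24. AT5G14920, a gibberellin-regulated GASA-type peptide, was steeper, with 2.804, 3.39 and 2.81 scaled TPM in LL36 libraries, against 0.384, 0.391 and 0.442 in LL24 libraries (ratio 7.405).

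Among genes for RNA and protein handling (13 members, median ratio 2.74), AT4G14270, a poly(A)-binding protein interacting protein, had 2.62, 2.05 and 2.94 scaled TPM in LL36 libraries, against 0.607, 0.17995 and 0.449 in LL24 libraries. AT4G26670, of the Tim17/Tim22/Tim23 import family, had 1.95, 2.07 and 1.69 scaled TPM in LL36 libraries, against 0.182, 0.173 and 0.368 in LL24 libraries, and the cyclophilin AT2G21130 had 2.46, 1.89 and 2.44 scaled TPM in LL36 libraries, against 0.302, 0.306 and 0.261 in LL24 libraries. HMGB2, a chromatin protein, had 3.38, 7.298 and 7.52 scaled TPM in LL36 libraries, against 2.01, 0.813 and 1.34 in LL24 libraries. In HMGB2 replicate 1 was the lowest evening and the highest morning library. NUC-L1, the main nucleolin, had 2.32, 2.53 and 2.18 scaled TPM in LL36 libraries, against 0.962, 0.961 and 1.06 in LL24 libraries. ACD32.1, with an alpha-crystallin domain, had 6.06, 6.68 and 5.25 scaled TPM in LL36 libraries, against 1.36, 1.44 and 1.16 in LL24 libraries.

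FER1 encodes ferritin, the plastid iron store, and had 4.66, 3.44 and 4.06 scaled TPM in LL36 libraries, against 0.748, 0.737 and 0.6902 in LL24 libraries (ratio 5.59). The long non-coding RNA AT5G01595 lies across it on the opposite strand (AT5G01595 at chr5:226972-229286, FER1 at chr5:227953-230051, TAIR10.1) and had 1.76, 2.07 and 2.51 scaled TPM in LL36 libraries, against 0.343, 0.3599 and 0.4799 in LL24 libraries (ratio 5.36). The ratios of the pair were close. No 100-nt stretch of either spliced transcript was found in another gene, but shorter reads can still be shared. No source states that the counting used strand, so some reads of the pair may not have been told apart. The snoRNA AT4G39361 had 2.23, 2.92 and 1.72 scaled TPM in LL36 libraries, against 1.07, 0 and 1.07 in LL24 libraries, with 1 LL24 library at 0. In all, 32 of the annotated members (31.1%) overlapped another annotated gene, against 35.4% of the other genes of that abundance. For 18 members any 100-nt stretch was also found in another gene and for 6 at least 50% of the stretches were, namely AT2G22880, AT1G45165, AT5G01881, PTAC18, AT5G10695 and AT5G57887. The partner genes of these 6 had mean levels below 1 scaled TPM where they were listed above 0.

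Further members had high evening levels. AT1G12845, an uncharacterized protein, had 6.67, 6.89 and 6.47 scaled TPM in LL36 libraries, against 0.499996, 1.11 and 0.943 in LL24 libraries (ratio 7.85). AT3G15630 had 5.92, 8.56 and 4.82 scaled TPM in LL36 libraries, against 1.16, 1.21 and 1.39 in LL24 libraries, and AT2G32650, a cupin-like protein, had 6.904, 6.87 and 6.49 scaled TPM in LL36 libraries, against 2.49, 2.26 and 3.205 in LL24 libraries (ratio 2.55). The gene AT2G33430, not in the annotation used, had 4.09, 4.53 and 4.09 scaled TPM in LL36 libraries, against 2.26, 1.98 and 1.99 in LL24 libraries.

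Whether members had also been found crosslinked to AtGRP7 was looked up in a list of gene IDs from the study's iCLIP experiment, a UV crosslinking method, which was made with other plants at LL36. Of the 104 members 29 were on that list (27.9%), compared with 218 of the 1914 other genes of mean TPM 1 to 5 (11.4%) and 12 of the 192 genes of the mirror image (6.25%). The share was higher still among more abundant genes, as 54.0% of the genes of mean TPM 5 or more were on the list, and so were 25 of the 38 that met the same criteria (65.8%). The study states that iCLIP targets lean towards highly expressed transcripts. Members were chosen for high LL36 values and the mirror image for low ones, so these shares are not independent of the rule. How much of the difference follows from the LL36 level was not tested. Members on the list had a median ratio of 3.599 and a median LL36 level of 4.06 scaled TPM, and those not on it 2.76 and 2.39. They included MEE14, DYL1, AT4G30660, AT3G62550, FER1, OEP16-1 and BT2. Because the list comes from LL36 alone, it holds no information on the morning. The study also ran iCLIP at LL24 and found many transcripts bound at both time points, but that list was not used here.

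The limits of the rule cut through a continuum. Just inside the ratio limit lay AT5G62900 (2.01), ERF104 (2.01), PTAC6 (2.02) and PIFI (2.03), and just outside lay GRP2B (1.99), CBSX3 (1.99), AT3G18050 (1.98) and HB2 (1.98). At the upper abundance limit AT1G45170 (4.98 deposited TPM) and AT4G30660 (4.71) were inside, and GR-RBP2 (5.70) and AT1G56220 (5.96) were outside. At the lower limit RTFL12 and CHL (1.03 each) were inside, and RDUF2 (0.985) and NUDT4 (0.977) were outside. A further 9 genes had a ratio of 2 or more but overlapped between time points, led by AT3G41761 at 6.40.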

How the data were processed

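RIP-seq libraries of AtGRP7-GFP plants (3 at LL36, 3 at LL24, replicate numbers from the titles) were analysed. The authors trimmed reads with Sickle, aligned them with STAR 2.5.2a to atRTD transcripts (TAIR10), quantified them with Salmon 0.8.2, summed transcripts per gene with tximport and left out rRNA, mitochondrial and chloroplast genes. The deposited values are TPM per gene, and the listed TPM of a library summed to 9.59% to 16.6% of what a full TPM table sums to. No source used here states whether counting used strand, and read totals were not used, so precision rests on replicate spread. Another 6 columns, headed Col-2 at LL24 and LL36, matched no sample and were not used.

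Scaled TPM is the deposited TPM divided by the library's median over genes of mean TPM 5 or more, times the geometric mean of the 6 medians. Overlap was judged on scaled TPM. Log2(scaled TPM + 0.1) of the 2807 genes of mean TPM 1 or more went into limma 3.58.1 under R 4.3.3 (lmFit, eBayes with trend, time point as the only term, two-sided, Benjamini-Hochberg adjustment), and the fit was checked on simulated data. Whether the replicates came from separate cultures or days is not stated beyond their being biological replicates. Names, coordinates and sequences came from RefSeq (TAIR10.1), which matched 103 of the 104 members. Its IDs are those of the table, which carries no coordinates. Functional groups were assigned from annotated product names and gene symbols. The crosslinking list was the 858 gene IDs of the study's LL36 iCLIP transcripts, used for IDs only.

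Members and gene lists were chosen with earlier results of these data known. Members named were the 12 of highest ratio, the 8 highest at LL36, those nearest each limit, on a fixed list, of shared families, with an evening element, most variable or not protein-coding, with further ones by function. Alternatives were other scalings, pseudocounts, filters, limits and windows, the replicate block and leaving out each library.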

Additional observations from a re-analysis of the deposited data

How the results depend on the processing

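All 52 genes found on TPM as deposited and all 63 found with overlap judged on deposited TPM were members, and of the 41 lost by the overlap on deposited TPM 39 had their lowest evening value in LL36 replicate 3. A ratio limit of 1.5 gave 217 genes and a limit of 3 gave 48, whereas the abundance limits set on listed TPM rescaled to the full TPM sum gave 205 other genes, none of them a member. Leaving out 1 library gave 90 to 134 genes, of which 84 to 99 were members. The median log2 ratio of the members was 1.53, it was 1.26 on TPM as deposited, and it was 1.48 to 1.72 without 1 library, highest without LL24 replicate 3 and lowest without LL24 replicate 2. No member fell to a ratio of 1 or less under any scaling or without any library, but 34 fell below 2 on TPM as deposited. Genes called by limma were 450 higher and 609 lower. On TPM as deposited 83 and 365 were called, with each library divided by its listed sum 185 and 404, with genes of mean TPM 5 or more alone 163 and 181, with genes of 0.5 or more 590 and 917, and with every gene above 0 658 and 1409. Scaling by the median over genes of mean TPM 1 or more gave 529 calls in each direction. Without 1 library the higher calls were 294 to 430, lowest without LL36 replicate 1, and the lower calls 443 to 550. Same-numbered replicates did not deviate together over the genes tested (correlations of -0.09, -0.07 and -0.14). These values cannot show whether such replicates shared a harvest or batch that touched some genes. The replicate block gave 348 higher and 513 lower calls. Of the list counts without members, cold-regulated genes called higher fell to 4 of 7 on TPM as deposited, BAM3 was not called lower there (0 starch genes), low-energy genes called higher were 2 with the median over genes of TPM 1 or more, and LHCA3 was not called (0 genes) on TPM as deposited, with the listed sum, with that median or with the replicate block. The evening element was in 9.71% of members in the upstream part alone and, in a window added after seeing the data, in 20.4% within 1000 bases before the start, against 7.03% of other genes of that abundance. The I-box was in 18.4% in the upstream part alone, against 13.2%. The share of members on the crosslinking list was 16.5 percentage points above that of other genes of mean TPM 1 to 5, which were not matched for LL36 level. It differed by -26.1 points from that of genes of mean TPM 5 or more. The cause of these shifts was not tested. Transcripts as short as 120 nt, such as the snoRNA, rest on few positions, and read totals were not used.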
